A study of Mus musculus with 12 samples.

Results

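G protein-coupled receptors that sense lipids and nucleotides were followed in sorted cardiac monocytes and macrophages before and after a freezing injury of the mouse heart. Members were taken by gene symbol: every row of the deposited table named Gpr plus a number, P2ry, Adora, S1pr, Lpar, Ptger, Ptafr, Cysltr, Ltb4r, Hrh, Adrb or Fpr, with Gpr34 left out. The rule met 79 of the 14460 genes. By name it is wider than its label: 33 of the 79 belong to nucleotide, adenosine, sphingolipid, lysophospholipid, prostaglandin, leukotriene, fatty acid, oxysterol or metabolite receptor families. The other 46 include 4 proton-sensing, 2 histamine, 2 beta-adrenergic and 2 formyl peptide receptors, and 10 adhesion receptors under older symbols. The rest are 17 other or orphan receptors and 9 genes with a Gpr symbol that are not classical receptors. These 9 include the pseudogene Gpr137b-ps.

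All cells came from hearts of Cx3cr1 GFP/+ knock-in mice aged 2 to 3 months, and were sorted for GFP, which in this line is made from the locus of the chemokine receptor Cx3cr1. Hearts were taken without surgery (day 0) or 3, 7 and 30 days after cryoinjury, with 3 libraries per group that the labels call independent biological replicates. The sort was Ly6c-low and CX3CR1-high at days 0, 7 and 30, but Ly6c-high and CX3CR1-low at day 3, so in every comparison with day 3 the time and the gate cannot be told apart. All groups, day 0 included, carry the GFP allele in place of a Cx3cr1 copy. In bulk libraries, fewer cells of a type and less RNA per cell cannot be told apart.

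Macrophages read danger and repair signals through these receptors. Dying and activated cells release ATP, ADP, UDP and UDP-glucose, which bind P2Y receptors, and ectoenzymes turn released ATP into adenosine, which binds adenosine receptors. Phospholipases, cyclooxygenases and lipoxygenases make prostaglandins, leukotrienes and platelet-activating factor, while sphingosine 1-phosphate, lysophosphatidic acid and oxysterols form gradients that position leukocytes. Receptors coupled to Gs raise cyclic AMP, which restrains many inflammatory responses, those coupled to Gi lower it and drive chemotaxis, those coupled to Gq raise calcium, and those coupled to G12 and G13 act on the cytoskeleton.

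Signal is the deposited normalised read count, and depth was 5828904 to 13199576 reads per library, so a count of 0 allows a signal of up to 0.190 to 0.543 by library (counting error only). Labels were checked on marker genes: Ly6c2 signal was 619.8 to 1004 at day 3 and 1.32 to 20.7 at day 0, Cx3cr1 was 33.8 to 44.0 and 145 to 157, and the macrophage gene Csf1r was 495 to 613 and 1455 to 1849. Markers of other cells were present and moved between groups. Summed signal of 10 fibroblast genes was 804, 2249 and 582 in the day 7 libraries against 47.9 to 129 at day 0, and that of 11 T and NK cell genes was 3.54 to 11.4 at day 3 against 32.7, 212 and 142 at day 0. Summed signal of 8 early response genes was 2930.2, 925 and 1093 at day 0, 1683 to 2330.4 at day 3, 753 to 1021 at day 7 and 3201 to 3312 at day 30. The 3 day 30 libraries resembled each other far more than those of other groups: the chi-square per gene between pairs was 2.16 to 2.88, against 5.82 to 82.8 in the other groups. Calls at day 30 were therefore also made with their mean counted as 1 sample, which is assumed to vary like the other groups. For day 30 against day 7, the adjusted p is given below where a quoted call was lost that way. No receptor call at day 30 against day 0 was kept that way.

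Of the 79 members, 69 reached a mean of 1 signal across all 12 libraries and were tested, and 29 reached a mean of 10. The 10 members not tested were Gpr4, Gpr26, Gpr97, Gpr128, Gpr162, Gpr165, Gpr174, Gpr182, Lpar2 and Lpar3, with means of 0.388 to 0.928. Among these, Gpr165, an orphan receptor, had signals of 2.51, 3.25 and 1.27 at day 0 and 0, 0 and 0 at day 3. Gpr165 had 0, 0 and 0.730 at day 7 and 0.780, 1.27 and 1.33 at day 30. It was at 0 in all 3 day 3 libraries, at least 6.76-fold lower than at day 0 against a floor of 3 reads per library. Gpr128, an adhesion receptor now called Adgrg7, had signals of 2.40, 3.66 and 2.78 at day 3 and at most 0.254 in every other library.

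Which receptors were most abundant changed with time and gate. Signal per kilobase of exon was highest for P2ry6 at day 0 (64.0 ± 3.04, SD, n = 3), for Ptafr at day 3 (109 ± 17.1), for P2ry6 at day 7 (81.0 ± 20.9) and for Gpr65 at day 30 (70.0 ± 2.96). P2ry6 is the UDP receptor, Ptafr binds platelet-activating factor, and Gpr65 senses protons. Gpr65 was among the top 3 in all groups, with means of 53.6 ± 8.01, 54.8 ± 16.3, 54.9 ± 17.6 and 70.0 ± 2.96 per kilobase at days 0, 3, 7 and 30, and passed no comparison. Gpr35, a receptor for which kynurenic acid and lysophosphatidic acids have been proposed as ligands, had rank 3 at day 3 with 44.7 ± 10.5, against 2.60 ± 0.364 at day 0. Neighbours in these orders often did not differ beyond their spread, such as Gpr65 (53.6 ± 8.01) and Ptafr (49.0 ± 4.42) at day 0.

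**Figure D1:**
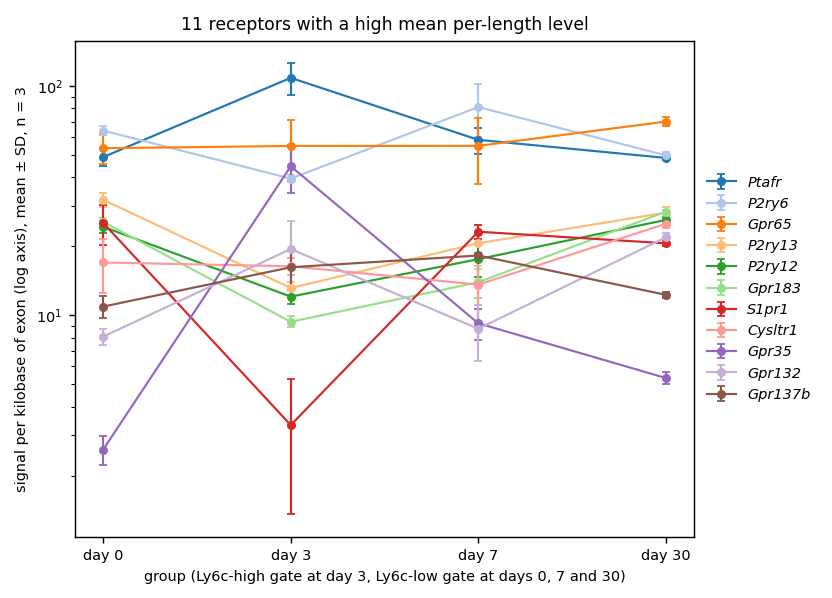
Signal per kilobase of exon (log axis) at days 0, 3, 7 and 30 for 11 receptors with a high mean level per length; points are means and bars SD of 3 libraries. Gpr65 is among the top 3 in all groups, Gpr35 peaks at day 3, and S1pr1 is lowest at day 3.

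Changes are log2 fold changes of signal + 1 with their SE (n = 3 against 3), from a limma fit of all 12 libraries, with p adjusted over all 12879 genes tested and 0.05 as threshold. At day 3 against day 0, 41 of the 69 tested members passed (59.4%, against 44.2% of all genes tested), 25 higher (background 22.1%) and 16 lower (background 22.1%). At day 7 against day 0, 29 passed (42.0%, background 21.6%), 20 higher (background 11.4%) and 9 lower (background 10.2%). At day 30 against day 0, 5 passed, all higher (7.25%, background 6.18%; 3.45% higher and 2.73% lower). Between successive times, 31 members passed at day 7 against day 3 (44.9%, background 46.8%), 17 higher and 14 lower (backgrounds 23.3% and 23.5%). At day 30 against day 7, 29 passed (42.0%, background 39.6%), 14 higher and 15 lower (backgrounds 19.7% and 19.9%). Comparisons against day 0 share the same 3 libraries. The members' share stood above its background at days 3 and 7 against day 0, and lay close to it in the other comparisons.

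The median change of the 69 tested members was 0.45 at day 3, 0.24 at day 7 and 0.20 at day 30 against day 0, beside -0.02, -0.02 and -0.01 for all genes tested. It was 0.15 at day 7 against day 3 and -0.18 at day 30 against day 7, beside 0.04 and 0.01. In the test over the 4 groups 48 members passed (69.6%, background 63.9%). Of these, 7 had their highest mean at day 0, 16 at day 3, 14 at day 7 and 11 at day 30, shares of 14.6%, 33.3%, 29.2% and 22.9%. Among all genes that passed, the shares were 17.7%, 35.5%, 28.1% and 18.6%. The lowest mean fell at day 0 for 22 of the 48, at day 3 for 17, at day 7 for 2 and at day 30 for 7. Shares of lowest means among all genes were not computed, so these counts have no background. Leaving out library 1 of day 0 and library 2 of day 7, which stood apart in early response and fibroblast genes, gave 44, 24, 13, 34 and 24 members for the 5 comparisons in the order above. Of all 12839 genes tested in that setting, 6879, 2311, 2504, 6191 and 4487 passed in the same order. With the day 30 mean as 1 sample, limma passed 0 members at day 30 against day 0 (5 at an unadjusted p under 0.05) and 7 at day 30 against day 7. On all 12 libraries edgeR passed 4 and DESeq2 7 members at day 30 against day 0. Of all 12879 genes they passed 755 and 1328.

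**Figure D2:**
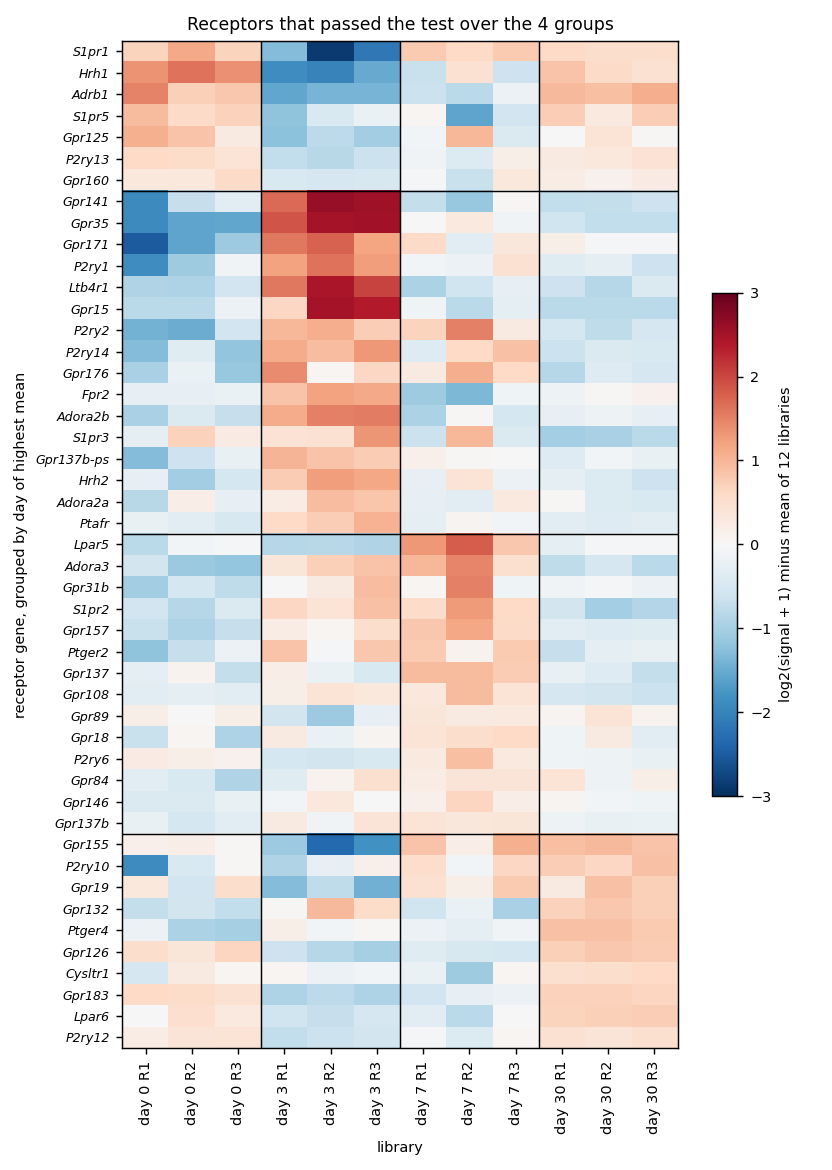
Log2(signal + 1) minus the mean of the 12 libraries for 47 of the receptors that passed the test over the 4 groups, in libraries of days 0, 3, 7 and 30 (columns) and grouped by the day of highest mean (rows). Of the 47, 7 are highest at day 0, 16 at day 3, 14 at day 7 and 10 at day 30.

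**Figure D3:**
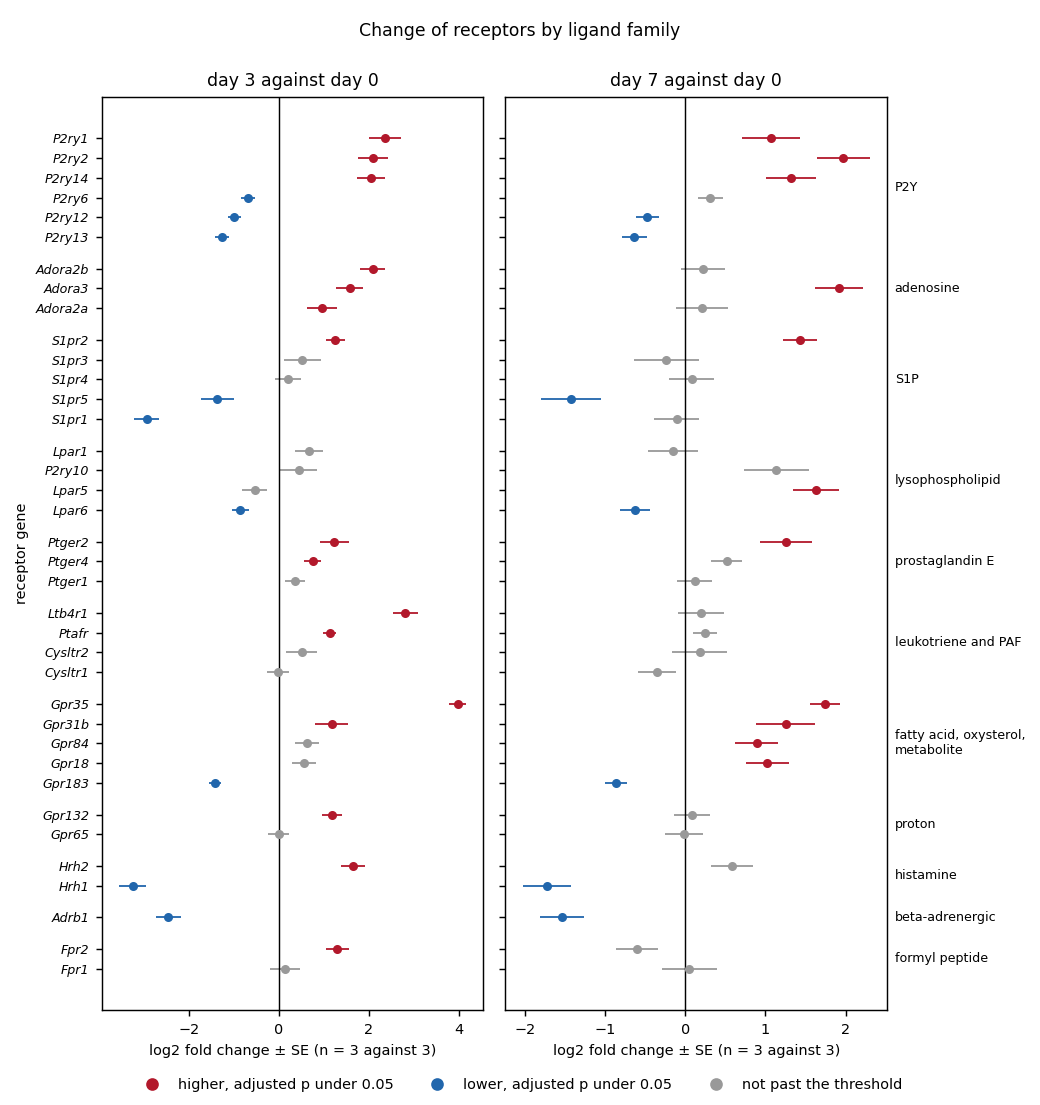
Log2 fold change ± SE at day 3 (left) and day 7 (right) against day 0 for receptors grouped by ligand, n = 3 against 3; red marks higher, blue lower and grey not past the threshold. All 3 adenosine receptors are higher at day 3 (22.1% of all genes tested are), while P2Y, sphingosine 1-phosphate and histamine receptors go in both directions.

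The P2Y nucleotide receptors split in both directions at day 3, and all 6 passed (100%, against 44.2% of all genes). The ADP receptors P2ry12 and P2ry13, which couple to Gi, were lower, as was the UDP receptor P2ry6. P2ry14, the UDP-glucose receptor, P2ry1, an ADP receptor coupled to Gq, and P2ry2, a receptor for ATP and UTP, were higher. 3 of the 6, with the receptor Gpr171, lie side by side on chromosome 3 within 166.424 kb (GRCm38): Gpr171 at chr3:59096448-59101821, P2ry14 at chr3:59113855-59153618, P2ry13 at chr3:59207892-59210882 and P2ry12 at chr3:59216272-59262871. All 4 are on the minus strand, inside the body of Med12l, a Mediator subunit gene on the plus strand (chr3:59005825-59318682).

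Since neighbours in this cluster moved in opposite directions, the promoter windows of 3 of them are given, from RefSeq on GRCm38.p6, minus strand, 5′ to 3′, 250 bases before to 50 after the annotated start. Capitals mark matches, on either strand, to TGANTCA (bound by AP-1 factors) or GAGGAA (the core bound by PU.1, the master factor of myeloid cells). The windows are chr3:59262936-59263235 for P2ry12, chr3:59210833-59211132 for P2ry13 and chr3:59153443-59153742 for the first of 4 starts of P2ry14. P2ry12 held no match, P2ry13 held GAGGAA at bases 203 to 208, and P2ry14 held TGACTCA at bases 49 to 55 and GAGGAA at bases 230 to 235. Of the P2ry14 windows not shown, the second held both motifs, and the third and the fourth held GAGGAA only.
P2ry12: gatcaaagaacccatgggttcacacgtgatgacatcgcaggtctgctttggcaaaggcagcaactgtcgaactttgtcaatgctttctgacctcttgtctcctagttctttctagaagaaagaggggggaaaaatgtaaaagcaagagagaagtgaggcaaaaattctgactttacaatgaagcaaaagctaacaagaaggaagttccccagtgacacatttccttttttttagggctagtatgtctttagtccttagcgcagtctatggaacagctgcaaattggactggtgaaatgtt
P2ry13: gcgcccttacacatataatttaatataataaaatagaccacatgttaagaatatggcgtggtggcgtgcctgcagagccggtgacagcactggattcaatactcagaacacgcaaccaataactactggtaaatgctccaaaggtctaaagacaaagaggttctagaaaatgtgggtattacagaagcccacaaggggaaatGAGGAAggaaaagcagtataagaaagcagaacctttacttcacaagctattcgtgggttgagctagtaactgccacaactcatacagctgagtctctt
P2ry14: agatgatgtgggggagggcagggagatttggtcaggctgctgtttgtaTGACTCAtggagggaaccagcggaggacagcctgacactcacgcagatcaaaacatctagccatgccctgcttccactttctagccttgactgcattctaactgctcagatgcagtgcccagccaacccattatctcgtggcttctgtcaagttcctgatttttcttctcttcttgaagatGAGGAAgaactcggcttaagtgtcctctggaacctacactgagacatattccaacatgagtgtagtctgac

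P2ry12 signal was 57.4, 63.7 and 64.8 at day 0 and 28.5, 30.8 and 32.8 at day 3. P2ry12 had 47.1, 36.4 and 50.8 at day 7 and 66.8, 64.2 and 68.2 at day 30. Day 3 was lowest with no overlap with any other group, and day 30 overlapped day 0. The change was -0.99 ± 0.15 at day 3 (adjusted p = 6.19e-05) and -0.47 ± 0.15 at day 7 against day 0, and 0.57 ± 0.15 at day 30 against day 7 (adjusted p = 0.174 with the day 30 mean as 1 sample). The day 7 call against day 0 was lost without the second or the third day 0 library, the second day 7 library or any day 30 library (then -0.47 to -0.33, adjusted p 0.0548 to 0.0967). P2ry13 was likewise lowest at day 3, with signals of 84.9, 83.0 and 74.3 at day 0 and 33.1, 31.2 and 35.6 at day 3. P2ry13 had 51.6, 41.7 and 63.1 at day 7 and 67.8, 69.4 and 75.6 at day 30. Its day 3 and day 7 libraries lay below all day 0 libraries, and the changes were -1.25 ± 0.16 (adjusted p = 9.72e-06) and -0.64 ± 0.16. P2ry6 was also low at day 3, but its day 7 libraries were the highest: signal was 194, 184 and 176 at day 0 and 113, 111 and 118 at day 3. P2ry6 had 199.99, 304 and 198 at day 7 and 148, 146 and 138 at day 30. Its changes were -0.69 ± 0.16 at day 3 against day 0 (adjusted p = 0.00214), 1.002 ± 0.16 at day 7 against day 3 and -0.67 ± 0.16 at day 30 against day 7 (adjusted p = 0.127 with the day 30 mean as 1 sample). The highest P2ry6 value was in the second day 7 library, the one with the highest sum of fibroblast genes, and the part of those cells in it was not tested.

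P2ry14, next to P2ry13, went the other way, with signals of 2.11, 4.93 and 2.35 at day 0 and 15.5, 13.5 and 17.7 at day 3. P2ry14 had 4.84, 10.5 and 13.1 at day 7 and 3.90, 4.66 and 4.56 at day 30. All day 3 libraries lay above all others, and day 7 spread widely, its first library within the day 0 range. The changes were 2.06 ± 0.31 at day 3 (adjusted p = 7.47e-05) and 1.31 ± 0.31 at day 7 against day 0. P2ry14 made 8.98% to 10.2% of the per-length signal of P2ry14 plus P2ry13 at day 3, against 0.566% to 1.34% at day 0. Gpr171, for which a neuropeptide has been reported as ligand in mouse, had the largest change in the cluster, with signals of 0.528, 1.89 and 3.08 at day 0 and 24.8, 28.7 and 18.5 at day 3. Gpr171 had 11.8, 5.90 and 9.93 at day 7 and 8.73, 7.49 and 7.35 at day 30. Every library after injury exceeded every day 0 library, with changes of 3.23 ± 0.32 (adjusted p = 1.05e-06), 1.92 ± 0.32 and 1.75 ± 0.32 at days 3, 7 and 30 against day 0. Gpr171 is also expressed by T cells, whose summed markers were lowest at day 3, where Gpr171 was highest; the part of T cells in its values was not tested.

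Med12l, the gene around the cluster, had signals of 3.83, 6.50 and 6.70 at day 0 and 12.3, 13.6 and 10.6 at day 3. Med12l had 5.30, 2.77 and 2.48 at day 7 and 7.88, 6.64 and 6.09 at day 30. It was higher at day 3 against day 0 (1.002 ± 0.26, adjusted p = 0.00604) and lower at day 7 against day 3 (-1.59 ± 0.26, adjusted p = 0.000201). Like P2ry14 and Gpr171 it was highest at day 3, and unlike them it had its lowest mean at day 7. Whether the counting used strand is not given in the sources used here. Reads from Med12l introns could therefore also count for any of the 4 receptors, which lie within it. Exons of Med12l and P2ry12 overlap by 9 bases. The part of such reads in the receptor values was not tested.

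P2ry1 and P2ry2 were low in level. P2ry1 signal was 0, 0.734 and 2.35 at day 0 and 7.28, 10.2 and 7.68 at day 3. P2ry1 had 2.42, 2.20 and 3.94 at day 7 and 1.79, 1.98 and 1.33 at day 30. Levels were highest at day 3 without overlap (2.37 ± 0.36, adjusted p = 7.31e-05). P2ry2 signal was 0.264, 0.210 and 1.27 at day 0 and 5.75, 6.14 and 4.63 at day 3. P2ry2 had 4.39, 8.55 and 3.07 at day 7 and 1.33, 0.989 and 1.39 at day 30. Days 3 and 7 lay above days 0 and 30 without overlap. Its changes were 2.10 ± 0.33 at day 3 (adjusted p = 9.72e-05) and 1.97 ± 0.33 at day 7 against day 0. P2ry1 also passed at day 7 against day 0 (1.07 ± 0.36), a call lost in 18 of the alternative settings, among them fits without the first or the second day 0 library, any day 3 library, any day 7 library or any day 30 library (then 0.65 to 1.19, adjusted p 0.0535 to 0.178).

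**Figure D4:**
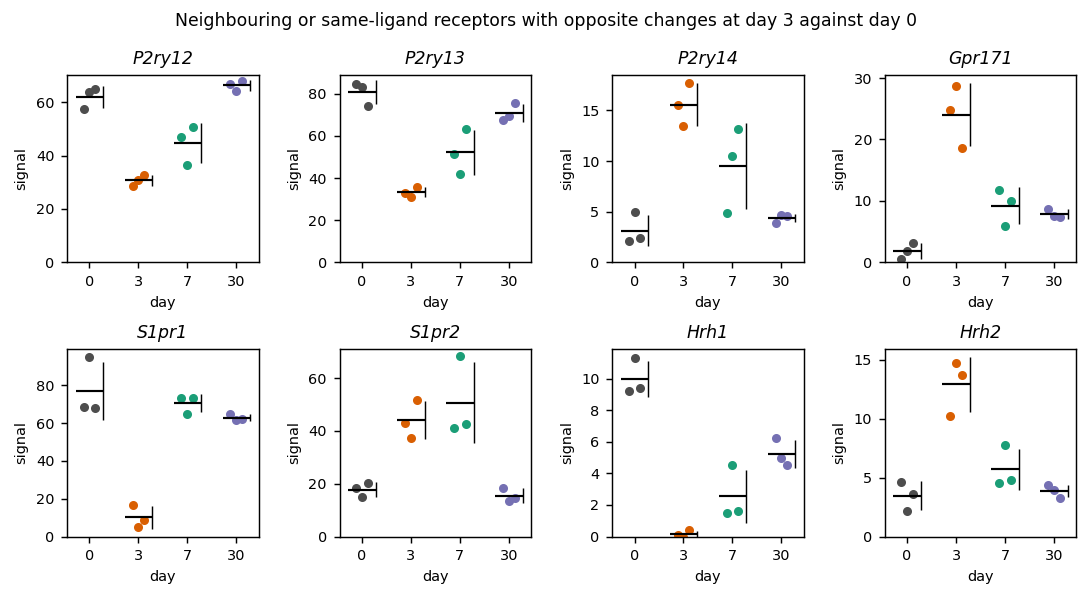
Signal of 4 neighbouring receptors on chromosome 3 (top) and of 2 pairs that share a ligand (bottom) at days 0, 3, 7 and 30; dots are libraries, lines means and bars SD, n = 3. P2ry12 and P2ry13 are lowest and P2ry14 and Gpr171 highest at day 3; S1pr1 and Hrh1 are lowest at day 3, where S1pr2 and Hrh2 lie above day 0.

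All 3 adenosine receptors were low in signal at day 0 and higher at day 3, as were 22.1% of all genes tested. Adora2b, the low-affinity receptor coupled to Gs, had signals of 1.32, 2.41 and 1.81 at day 0 and 8.91, 12.04 and 12.3 at day 3. Adora2b had 1.36, 3.70 and 2.19 at day 7 and 2.89, 3.11 and 2.85 at day 30. Its day 3 libraries lay above all others, with a change of 2.09 ± 0.27 (adjusted p = 1.65e-05), and it was lower at day 7 against day 3 by -1.87 ± 0.27. Adora3, coupled to Gi, had signals of 0.792, 0.210 and 0.181 at day 0 and 2.40, 3.31 and 3.71 at day 3. Adora3 had 4.24, 6.24 and 2.63 at day 7 and 0.546, 0.848 and 0.507 at day 30. It was high at days 3 and 7 alike, with changes of 1.58 ± 0.30 and 1.92 ± 0.30 against day 0 (adjusted p = 0.000535 and 0.000401), and lower at day 30 against day 7 (-1.67 ± 0.30; adjusted p = 0.0545 with the day 30 mean as 1 sample). Exons of Adora3 overlap those of 1 gene on the same strand that is outside the deposited table. The part of such reads in the Adora3 values was not tested. Adora2a, the high-affinity Gs receptor, passed at day 3 (0.96 ± 0.33, adjusted p = 0.0259) with a mean signal under 3 in all groups. Adora2b made 85.8% to 90.1% of the per-length signal of Adora2b plus Adora2a at day 3 and 71.8% to 89.2% at day 0, ranges that overlap.

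The sphingosine 1-phosphate receptors changed in composition. S1pr1 couples to Gi and draws leukocytes toward blood and lymph, while S1pr2 also couples to G12 and G13 and restrains migration. S1pr1 signal was 68.5, 94.8 and 67.9 at day 0 and 16.7, 4.96 and 8.74 at day 3. S1pr1 had 73.4, 65.0 and 73.3 at day 7 and 65.0, 61.5 and 61.9 at day 30. Day 3 was lowest without overlap, days 0 and 7 overlapped, and day 30 lay below day 0, with a change of -2.94 ± 0.28 at day 3 against day 0 (adjusted p = 5.96e-07) and 2.83 ± 0.28 at day 7 against day 3. S1pr1 is also a lymphocyte gene. The summed signal of 5 B cell genes was 277 to 304 at day 0, 69.7 to 113 at day 3, 209.7 to 330.1 at day 7 and 235 to 252 at day 30. Most of it was Ighm, with 62.2 to 111 at day 3 and 265 to 289 at day 0. The part of B cells in the S1pr1 values was not tested. S1pr2 signal was 18.2, 14.9 and 20.3 at day 0 and 43.0, 37.4 and 51.9 at day 3. S1pr2 had 41.0, 68.3 and 42.5 at day 7 and 18.6, 13.3 and 14.8 at day 30. Here days 3 and 7 lay above days 0 and 30 without overlap, with changes of 1.26 ± 0.21 at day 3 (adjusted p = 0.000191) and 1.43 ± 0.21 at day 7 against day 0, and of -1.62 ± 0.21 at day 30 against day 7. S1pr2 made 49.6% to 74.3% of the per-length signal of both at day 3 and 17.6% to 28.7% at day 7, against 5.66% to 10.2% at day 0; at day 30 it made 7.63% to 9.83%.

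Of the other S1P receptors, S1pr5, known from NK cells and patrolling monocytes, was lower at day 3 (-1.36 ± 0.38, adjusted p = 0.00829) and at day 7 against day 0 (-1.43 ± 0.38), the second of these calls lost without the second day 7 library (then -0.99, adjusted p 0.0544). Its signal was 4.75, 3.46 and 3.80 at day 0 and 0.287, 1.18 and 1.59 at day 3. S1pr5 had 2.12, 0 and 1.022 at day 7 and 3.98, 2.69 and 3.99 at day 30. Days 0 and 30 lay above days 3 and 7. The T and NK cell sum was 3.54 to 11.4 at day 3, 17.5 to 53.6 at day 7 and 16.96 to 20.1 at day 30, beside 32.7 to 212 at day 0. Its part in the S1pr5 values was not tested. S1pr5 did not pass at day 30 against day 0 (-0.14 ± 0.38). S1pr3 and S1pr4 had means of at most 3.39 signal in any group and passed in none of the 5 comparisons of 2 times; S1pr3 passed the test over the 4 groups. The highest S1pr3 value at day 7, 4.05, was in the second library, the one with the highest fibroblast sum.

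Lysophospholipid receptors had 4 of 7 members tested. Lpar6, a lysophosphatidic acid receptor, was the most abundant, with signals of 58.9, 82.9 and 71.5 at day 0 and 38.6, 36.1 and 40.9 at day 3. Lpar6 had 47.2, 33.1 and 58.6 at day 7 and 93.6, 96.4 and 97.8 at day 30. It was lowest at days 3 and 7 and highest at day 30, with changes of -0.85 ± 0.19 at day 3 against day 0 (adjusted p = 0.00164) and 1.07 ± 0.19 at day 30 against day 7 (adjusted p = 0.0502 with the day 30 mean as 1 sample). 408 bases of its exons overlap those of Rb1 on the other strand. Lpar5, another lysophosphatidic acid receptor, was instead high at day 7: its signal was 1.32, 2.83 and 2.90 at day 0 and 1.25, 1.299 and 1.19 at day 3. Lpar5 had 9.08, 13.4 and 6.13 at day 7 and 2.34, 2.97 and 2.92 at day 30. All day 7 libraries lay above all others, with changes of 1.63 ± 0.29 against day 0 (adjusted p = 0.00102), 2.17 ± 0.29 against day 3 and -1.44 ± 0.29 at day 30 against day 7 (adjusted p = 0.0737 with the day 30 mean as 1 sample). Lpar1 was lower at day 7 against day 3 (-0.83 ± 0.31).

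Both prostaglandin E receptors of the Gs type, Ptger2 and Ptger4, were higher at day 3 against day 0. Ptger4 signal was 43.6, 24.8 and 24.3 at day 0 and 56.0, 46.8 and 50.2 at day 3. Ptger4 had 43.6, 39.9 and 45.6 at day 7 and 91.0, 90.7 and 86.0 at day 30. Day 3 lay above day 0, days 0 and 7 overlapped through the first day 0 library, and day 30 lay above all others. Changes were 0.75 ± 0.19 at day 3 (adjusted p = 0.00464) and 1.55 ± 0.19 at day 30 against day 0 (adjusted p = 0.00029), and 1.04 ± 0.19 at day 30 against day 7 (adjusted p = 0.0586 with the day 30 mean as 1 sample). The sum of early response genes was likewise highest at day 30 and, within day 0, in the first library; its part in the result was not tested. Without that library Ptger4 also passed at day 7 against day 0 (0.78, adjusted p = 0.00284). Ptger2 signal was 1.19, 2.10 and 3.44 at day 0 and 8.14, 3.90 and 7.81 at day 3. Ptger2 had 7.72, 4.39 and 7.74 at day 7 and 2.11, 3.11 and 3.30 at day 30. Every library of days 3 and 7 lay above every library of days 0 and 30. Its changes were 1.24 ± 0.32 (adjusted p = 0.00577) and 1.26 ± 0.32 at days 3 and 7 against day 0, the second lost without the first day 0 library (then 1.004, adjusted p 0.0519). Ptger1, coupled to calcium signalling, passed no comparison. Exons of Ptger4 (6648 bases) overlap those of Ttc33 and Gm15937 on the other strand, by 1015 bases for the larger overlap.

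Among leukotriene and platelet-activating factor receptors, Ltb4r1 and Ptafr were higher at day 3. Ltb4r1, the high-affinity leukotriene B4 receptor that guides leukocytes to inflamed tissue, had signals of 0.660, 0.629 and 1.09 at day 0 and 8.24, 15.9 and 11.6 at day 3. Ltb4r1 had 0.606, 1.04 and 1.61 at day 7 and 1.01, 0.707 and 1.27 at day 30. It was at most 1.61 outside day 3, with changes of 2.82 ± 0.29 at day 3 against day 0 (adjusted p = 1.3e-06) and -2.62 ± 0.29 at day 7 against day 3. Ptafr signal was 192, 182 and 161 at day 0 and 343, 377 and 464 at day 3. Ptafr had 184, 239 and 213 at day 7 and 178, 173 and 179 at day 30. Ptafr was highest at day 3 without overlap (1.14 ± 0.15, adjusted p = 1.68e-05), and lower at day 7 against day 3 (-0.89 ± 0.15). Cysltr1, the cysteinyl leukotriene receptor, was highest at day 30: its signal was 62.4, 108 and 92.2 at day 0 and 91.7, 77.7 and 83.3 at day 3. Cysltr1 had 76.5, 42.1 and 91.6 at day 7 and 124, 129 and 134 at day 30. It passed at day 30 against day 7 (0.94 ± 0.24, adjusted p = 0.00699; adjusted p = 0.135 with the day 30 mean as 1 sample), and not at day 30 against day 0 (0.59 ± 0.24). Without the second day 7 library the first of these changes was 0.62.

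Formyl peptide receptors bind bacterial and mitochondrial peptides. Fpr2 signal was 9.24, 9.23 and 9.60 at day 0 and 21.2, 27.0 and 25.7 at day 3. Fpr2 had 4.84, 3.81 and 10.2 at day 7 and 9.98, 11.6 and 12.4 at day 30. Fpr2 was highest at day 3 without overlap (1.301 ± 0.26, adjusted p = 0.000776) and lower at day 7 against day 3 (-1.90 ± 0.26). Its exons overlap those of 1 gene on the same strand outside the deposited table, and the part of such reads was not tested. Fpr1 signal was 1.72, 4.93 and 2.72 at day 0 and 6.32, 1.89 and 2.78 at day 3. Fpr1 had 3.94, 2.31 and 3.07 at day 7 and 7.02, 6.50 and 6.59 at day 30. Fpr1 did not pass at day 3 against day 0 (0.14 ± 0.34). Ltb4r1 and Fpr2 are also genes of neutrophils. Of 8 neutrophil markers 6 were in the table, and their sum was 245 to 309 at day 3, against 53.2 to 102 at day 0. Most of it was Csf3r, with 149 to 185 at day 3 and 47.8 to 54.7 at day 0, whereas the granulocyte genes S100a8 and S100a9 had 31.8, 6.38 and 13.9 and 35.9, 6.02 and 16.02 at day 3, and 1.58, 7.02 and 17.6 and 0.264, 7.13 and 17.9 at day 0. The part of neutrophils in these results was not tested.

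Gpr35 had the largest rise among members. Its signal was 10.6, 13.4 and 13.8 at day 0 and 158, 243 and 248 at day 3. Gpr35 had 42.4, 52.4 and 39.3 at day 7 and 27.6, 24.9 and 24.9 at day 30. All libraries after injury lay above all day 0 libraries, and no 2 groups overlapped. The changes against day 0 were 3.98 ± 0.19 at day 3 (adjusted p = 3.63e-10), 1.75 ± 0.19 at day 7 (adjusted p = 1.31e-05) and 0.99 ± 0.19 at day 30 (adjusted p = 0.00652). It was lower at day 7 against day 3 by -2.23 ± 0.19 and at day 30 against day 7 by -0.76 ± 0.19 (adjusted p = 0.132 with the day 30 mean as 1 sample). Its second of 2 promoter windows (chr1:92978653-92978952, plus strand) is shown as the one with both motifs: TGAGTCA at bases 67 to 73, and GAGGAA at bases 83 to 88 and 239 to 244, in capitals. The first window held no match to either motif.
Gpr35: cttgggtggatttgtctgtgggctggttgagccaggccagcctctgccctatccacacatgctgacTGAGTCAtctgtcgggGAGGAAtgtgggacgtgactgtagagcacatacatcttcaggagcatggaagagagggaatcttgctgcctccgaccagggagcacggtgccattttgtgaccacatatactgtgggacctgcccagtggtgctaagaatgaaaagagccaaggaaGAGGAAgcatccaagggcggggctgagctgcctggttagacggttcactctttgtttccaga

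The oxysterol receptor Gpr183, which positions lymphocytes and dendritic cells, went the other way. Its signal was 76.7, 74.4 and 70.3 at day 0 and 26.3, 28.8 and 26.1 at day 3. Gpr183 had 33.6, 42.3 and 44.8 at day 7 and 82.7, 82.5 and 80.2 at day 30. Days 3 and 7 lay below days 0 and 30 without overlap, with changes of -1.41 ± 0.14 at day 3 (adjusted p = 9.64e-07) and -0.87 ± 0.14 at day 7 against day 0, and of 1.016 ± 0.14 at day 30 against day 7. Gpr183 is also expressed by B cells, whose summed markers are given with S1pr1, and their part was not tested. Gpr84, a receptor for medium-chain fatty acids, and Gpr18, a lipid receptor whose ligand is debated, were higher at day 7 against day 0, by 0.89 ± 0.27 and 1.023 ± 0.27. Both had means under 10 signal in all groups. The Gpr84 call was lost without the second or the third day 0 library or the second or the third day 7 library (then 0.72 to 0.94, adjusted p 0.0535 to 0.108), and the Gpr18 call without the third day 0 library (then 0.82, adjusted p 0.0641). Gpr31b was higher at day 3 (1.18 ± 0.37) and day 7 (1.25 ± 0.37); the day 3 call was lost without the first day 0 library or the third day 3 library (then 0.92 to 1.05, adjusted p 0.0518 to 0.0899), and the day 7 call without the first or the third day 0 library or the second day 7 library (then 0.74 to 1.26, adjusted p 0.062 to 0.0927).

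Proton-sensing receptors respond to acid extracellular fluid, as in ischaemic tissue. Gpr132, which also binds oxidised fatty acids, had signals of 21.3, 23.9 and 20.6 at day 0 and 36.1, 70.6 and 51.9 at day 3. Gpr132 had 23.2, 30.5 and 17.5 at day 7 and 57.6, 62.5 and 58.3 at day 30. Days 3 and 30 lay above days 0 and 7 without overlap, with changes of 1.18 ± 0.22 at day 3 (adjusted p = 0.000528) and 1.40 ± 0.22 at day 30 against day 0 (adjusted p = 0.00212). It was lower at day 7 against day 3 (-1.11 ± 0.22) and higher at day 30 against day 7 (1.32 ± 0.22). Gpr65 signal was 129.7, 104 and 98.7 at day 0 and 152, 91.5 and 96.5 at day 3. Gpr65 had 129.7, 71.8 and 139 at day 7 and 139, 145 and 151 at day 30. Its groups overlapped at days 0, 3 and 7, and changes against day 0 were 0.00 ± 0.23, -0.01 ± 0.23 and 0.39 ± 0.23 at days 3, 7 and 30.

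Beta-adrenergic receptors raise cyclic AMP on binding adrenaline and noradrenaline. Adrb1 was lowest at day 3 and next at day 7, with signals of 7.26, 3.88 and 4.17 at day 0 and 0, 0.118 and 0.132 at day 3. Adrb1 had 0.908, 0.694 and 1.61 at day 7 and 4.84, 4.52 and 5.32 at day 30. At day 3 it had 0, 1 and 1 reads. Its changes against day 0 were -2.45 ± 0.27 at day 3 and -1.54 ± 0.27 at day 7 (adjusted p = 3.18e-06 and 0.00105). With so few reads, the added 1 signal makes the day 3 change smaller than the ratio of signals. Summed signal of 10 cardiomyocyte genes was 81.6 to 401 at day 0 and 11.3 to 17.1 at day 3. That sum was 84.6 to 214 at day 7 and 25.3 to 26.3 at day 30. The part of cardiomyocytes in the Adrb1 values was not tested.

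Histamine receptors changed in composition too. Hrh1 couples to Gq and Hrh2 to Gs. Hrh1 signal was 9.24, 11.3 and 9.42 at day 0 and 0.0958, 0 and 0.397 at day 3. Hrh1 had 1.51, 4.51 and 1.61 at day 7 and 6.24, 4.95 and 4.50 at day 30. Levels were near 0 at day 3 and between at days 7 and 30. The changes against day 0 were -3.25 ± 0.30 at day 3 (adjusted p = 4.64e-07) and -1.73 ± 0.30 at day 7 (adjusted p = 0.000905), and it was higher at day 7 against day 3 by 1.52 ± 0.30. Hrh2 signal was 4.62, 2.20 and 3.62 at day 0 and 10.3, 14.8 and 13.8 at day 3. Hrh2 had 4.54, 7.75 and 4.82 at day 7 and 4.37, 3.96 and 3.30 at day 30. Hrh2 was highest at day 3 without overlap (1.66 ± 0.26, adjusted p = 0.000109) and lower at day 7 against day 3 (-1.07 ± 0.26). Hrh2 made 96.3% to 100% of the per-length signal of both receptors at day 3 and 56.3% to 69.2% at day 7, against 12.7% to 27.3% at day 0; at day 30 it made 34.4% to 37.5%. The sum of 6 mast cell markers was 0.575 to 0.794 at day 3 and 22.6 to 40.9 at day 0, and at day 3 the mast cell proteases Cma1, Mcpt4, Cpa3 and Tpsb2 were at 0 in all libraries.

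Among orphan receptors, Gpr141 had the largest change. Its signal was 3.30, 8.91 and 11.8 at day 0 and 51.4, 97.9 and 92.9 at day 3. Gpr141 had 8.78, 6.36 and 15.5 at day 7 and 8.66, 8.76 and 9.44 at day 30. It lay above all other groups at day 3 (3.27 ± 0.37, adjusted p = 3.62e-06) and lower at day 7 against day 3 (-2.89 ± 0.37). Gpr15, a homing receptor of T cells, had signals of 0, 0 and 0.543 at day 0 and 1.72, 8.85 and 8.07 at day 3. Gpr15 had 0.606, 0 and 0.438 at day 7 and 0, 0 and 0 at day 30. It was higher at day 3 against day 0 (2.43 ± 0.42, adjusted p = 0.000233) and at 0 in all day 30 libraries; 204 of its 1638 exon bases overlap Cpox on the other strand. Gpr157, which signals in cilia of neural progenitors in mouse, was highest at day 7 with signals of 7.52, 6.19 and 7.43 at day 0 and 14.8, 13.1 and 18.7 at day 3. Gpr157 had 22.9, 29.5 and 19.3 at day 7 and 9.75, 9.47 and 9.63 at day 30. Its changes against day 0 were 1.03 ± 0.20 at day 3 and 1.61 ± 0.20 at day 7 (adjusted p = 0.000603 and 4.62e-05), and it was lower at day 30 against day 7 (-1.21 ± 0.20). Gpr160 was lower at day 3 (-0.88 ± 0.20), as was Gpr19 (-1.27 ± 0.33), whose signal was under 1 in all day 3 libraries. Gpr146 was higher at day 7 against day 0 (0.69 ± 0.17); it also passed at day 3 (0.45 ± 0.17), a call lost without any day 0 library, the second or the third day 3 library or any day 30 library (then 0.33 to 0.51, adjusted p 0.0506 to 0.179). Gpr176 was higher at days 3 and 7 (1.46 ± 0.37 and 1.42 ± 0.37) and had at most 4.89 signal. Its exons overlap those of 1 gene on the same strand outside the deposited table, and the part of such reads was not tested. Gpr153 passed at day 7 (1.29 ± 0.44), with 6.59 signal in the second day 7 library and at most 1.82 elsewhere.

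Of the adhesion receptors, 8 of 10 were tested and 2 passed at day 3, both lower (25%, against 44.2% of all genes). Gpr126, now called Adgrg6 and known from Schwann cell myelination, had signals of 29.8, 26.3 and 32.4 at day 0 and 12.9, 10.7 and 9.66 at day 3. Gpr126 had 15.4, 14.3 and 13.9 at day 7 and 34.2, 36.2 and 35.2 at day 30. Days 3 and 7 lay below days 0 and 30 without overlap, with changes of -1.34 ± 0.16 (adjusted p = 6.89e-06) and -0.97 ± 0.16 against day 0, and of 1.22 ± 0.16 at day 30 against day 7. Gpr125, now Adgra3, was lower at day 3 (-1.76 ± 0.36) with at most 0.354 signal there. Gpr116, now Adgrf5 and an endothelial and lung epithelial gene, had signals of 3.83, 36.7 and 34.4 at day 0 and 5.75, 6.73 and 7.81 at day 3. Gpr116 had 8.18, 19.1 and 9.64 at day 7 and 7.41, 6.93 and 6.59 at day 30. The first day 0 library stood far below the other 2, and so did its sum of 8 endothelial markers. That sum was 27.8, 212 and 166 at day 0, 125 to 168 at day 3, 83.0 to 169 at day 7 and 46.2 to 50.2 at day 30. The part of endothelial cells in the Gpr116 values was not tested. Gpr116 did not pass at day 3 (-1.27 ± 0.56, adjusted p = 0.0777); without the first day 0 library the change was -2.24 (adjusted p = 1.79e-05).

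The 9 genes with a Gpr symbol that are not classical receptors include the pseudogene Gpr137b-ps, and the proteins sit mostly in lysosomes or the Golgi. Of the 9, 5 passed at day 3 (55.6%, against 44.2% of all genes). Gpr155, a lysosomal cholesterol sensor, had signals of 27.3, 28.0 and 24.8 at day 0 and 10.9, 4.01 and 6.22 at day 3. Gpr155 had 44.8, 28.1 and 51.7 at day 7 and 45.9, 48.3 and 45.0 at day 30. Day 3 was lowest without overlap (-1.87 ± 0.27, adjusted p = 3.98e-05), and day 7 was higher than day 3 by 2.45 ± 0.27. Gpr137b, a lysosomal protein, was higher at days 3 and 7 against day 0 (0.55 ± 0.15 and 0.73 ± 0.15), and so was its pseudogene Gpr137b-ps (1.59 ± 0.23 and 0.78 ± 0.23). These are near-identical copies whose reads the counting could split, so the values of each are uncertain. The day 7 call of Gpr137b-ps was lost without the first day 0 library or the first day 7 library (then 0.49 to 0.74, adjusted p 0.0505 to 0.0938); the day 3 change of Gpr137b was also not past the threshold after quantile normalisation. Gpr108, a Golgi protein, was higher at days 3 and 7 (0.61 ± 0.17 and 0.87 ± 0.17) and lower at day 30 against day 7 (-1.13 ± 0.17); quantile normalisation ended its day 3 call. Gpr89 was lower at day 3 (-0.75 ± 0.22), a call lost without the second day 3 library (then -0.52, adjusted p 0.0641). Gpr137 was higher at day 7 against day 0 (1.18 ± 0.26) and day 3 (1.04 ± 0.26), with 524 exon bases that overlap Bad on the other strand. Gpr107, a Golgi protein, had signals of 55.4, 42.6 and 37.9 at day 0 and 46.4, 47.2 and 50.4 at day 3. Gpr107 had 51.3, 56.5 and 52.3 at day 7 and 38.0, 38.9 and 43.8 at day 30. It passed at day 30 against day 7 only (-0.40 ± 0.15, adjusted p = 0.0487; adjusted p = 0.334 with the day 30 mean as 1 sample), a call lost without the second day 0 library, any day 3 library, any day 7 library or any day 30 library (then -0.46 to -0.36, adjusted p 0.0517 to 0.15).

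Further tested members were low in level, with means of 1.27 to 4.85 signal. The orphan receptors Gpr82 and Gpr85 passed at day 7 against day 3, Gpr82 higher (0.89 ± 0.30) and Gpr85 lower (-0.99 ± 0.37). None of the 5 comparisons passed for the adhesion receptors Gpr56 (now Adgrg1), Gpr98, Gpr124 and Gpr133, for the cysteinyl leukotriene receptor Cysltr2, for the orphan receptors Gpr21 and Gpr22, or for Gpr137c and Gpr180.

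At day 30 against day 0, 5 of the 69 tested receptors passed, a share near that of all genes, and 14 had an unadjusted p under 0.05. The share of all genes at that unadjusted threshold was not computed. The other 64 are not shown to be equal to day 0. The 5 that passed were all higher: Gpr171 (1.75 ± 0.32, adjusted p = 0.00566), Ptger4 (1.55 ± 0.19, adjusted p = 0.00029), P2ry10 (1.52 ± 0.41, adjusted p = 0.0399), Gpr132 (1.40 ± 0.22, adjusted p = 0.00212) and Gpr35 (0.99 ± 0.19, adjusted p = 0.00652). P2ry10, a lysophosphatidylserine receptor of lymphocytes, had signals of 0.264, 2.41 and 3.80 at day 0 and 1.53, 2.95 and 4.24 at day 3. P2ry10 had 5.75, 3.47 and 6.28 at day 7 and 6.79, 6.22 and 7.67 at day 30. All day 30 libraries lay above all day 0 libraries, but the call was lost without the first or the second day 0 library, the second day 3 library or any day 30 library (then 0.96 to 1.68, adjusted p 0.0545 to 0.152). The count depended on the samples: it was 11 without the second day 7 library, 13 without that and the first day 0 library and 13 in a fit of days 30 and 0 alone. Over all genes the count moved too, from 796 to 1995, 2504 and 2674 in the same settings. With the day 30 libraries averaged, none of the 5 calls was kept.

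**Figure D5:**
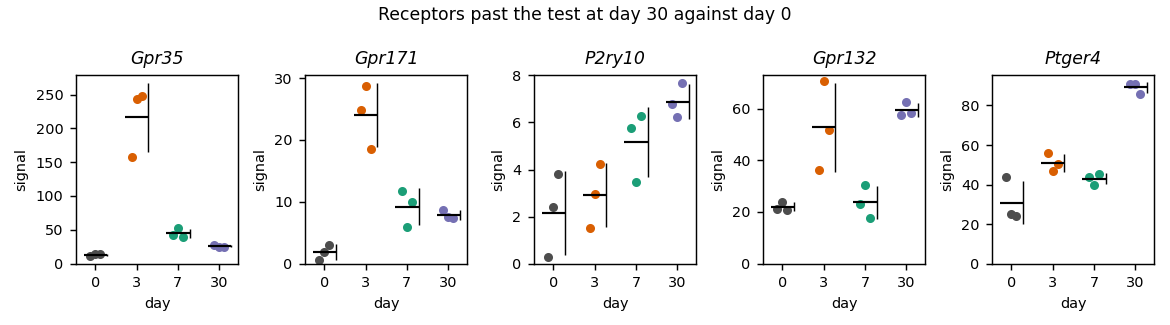
Signal of the 5 receptors that passed at day 30 against day 0, at days 0, 3, 7 and 30; dots are libraries, lines means and bars SD, n = 3. Ptger4 is highest at day 30, Gpr35 and Gpr171 peak at day 3, and Gpr132 is high at days 3 and 30.

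Enzymes that make or clear the ligands moved in both directions. Of 22 tested from a list of 26, 5 were higher and 9 lower at day 3 against day 0, with a median of 0.11. That is 63.6% of the list, against 44.2% of all genes (22.1% higher and 22.1% lower). For prostaglandins, the inducible cyclooxygenase Ptgs2 had signals of 24.8, 11.1 and 20.3 at day 0 and 199, 297 and 245 at day 3. Ptgs2 had 24.2, 15.6 and 23.1 at day 7 and 107, 107 and 108 at day 30. The constitutive Ptgs1 had signals of 100.4, 87.6 and 89.8 at day 0 and 6.32, 5.78 and 6.88 at day 3. Ptgs1 had 68.3, 64.0 and 54.6 at day 7 and 75.1, 79.4 and 70.6 at day 30. Ptgs2 was higher at day 3 (3.70 ± 0.24) and at day 30 against day 0 (2.52 ± 0.24), while Ptgs1 was lower at day 3 (-3.68 ± 0.14). Hpgd, which degrades prostaglandins, had signals of 481, 508 and 436 at day 0 and 10.8, 11.2 and 10.9 at day 3. Hpgd had 171, 84.7 and 215 at day 7 and 337, 339 and 373 at day 30. Hpgd was lowest at day 3 (-5.31 ± 0.24). For leukotrienes, the lipoxygenase Alox5 had signals of 115, 110.4 and 94.4 at day 0 and 3.64, 1.77 and 2.52 at day 3. Alox5 had 26.6, 22.8 and 34.6 at day 7 and 67.1, 77.5 and 68.0 at day 30. Alox5 was lower at days 3 and 7 (-4.91 ± 0.20 and -1.90 ± 0.20). Ltc4s, which makes cysteinyl leukotrienes, was lower at the same days (-3.17 ± 0.22 and -1.55 ± 0.22).

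For nucleotides, Entpd1 (CD39), which degrades ATP and ADP, was lower at day 3 (-1.58 ± 0.14), and Nt5e (CD73), which makes adenosine, was higher (2.89 ± 0.27), with signals of 0.396, 1.15 and 0.181 at day 0 and 10.2, 10.98 and 9.80 at day 3. Nt5e had 3.18, 4.28 and 5.26 at day 7 and 2.18, 1.84 and 2.79 at day 30. Every library after injury exceeded every day 0 library for Nt5e. Hdc, which makes histamine, was higher at day 3 (3.03 ± 0.35), and Sgpp1, a sphingosine 1-phosphate phosphatase, was lower (-1.86 ± 0.20). Ch25h, which makes the precursor of the Gpr183 ligand, was higher at day 7 (0.81 ± 0.22) and day 30 (0.88 ± 0.22; adjusted p = 0.682 with the day 30 mean as 1 sample) against day 0. Over the list 6 were higher and 5 lower at day 7, and 3 higher and 0 lower at day 30, against day 0. These shares of 50% and 13.6% stand beside 21.6% and 6.18% of all genes. With the day 30 mean as 1 sample Ptgs2 still passed at day 30 against day 0 and Nt5e and Ch25h did not. Ptgs2 is known to be induced along with early response genes, whose sums per group are given above; their part in its change was not tested.

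Downstream of the receptors, 15 of 17 rows for cyclic AMP enzymes were tested, and at day 3 against day 0 1 was higher and 7 lower, with a median of -0.56. That is 53.3%, against 44.2% of all genes. Pde7b, a cyclic AMP phosphodiesterase, was the one that was higher (2.47 ± 0.23), with 132 to 139 signal at day 3 and 22.3 to 25.3 at day 0. The adenylyl cyclases Adcy9 and Adcy6 were lower (-1.89 ± 0.26 and -1.69 ± 0.27), as was the phosphodiesterase Pde3b (-1.87 ± 0.25). Of 9 G protein alpha subunits tested, 2 were higher and 3 lower at day 3 (55.6%, against 44.2% of all genes). Gna13, which S1pr2 uses, was higher (1.28 ± 0.13) and Gna12 lower (-1.19 ± 0.25). Of 14 RGS proteins, receptor kinases and arrestins, 3 were higher and 3 lower (42.9%, near the 44.2% of all genes), with Rgs1 higher at day 3 (1.58 ± 0.33) and Rgs10 and Arrb1 lower (-1.66 ± 0.16 and -1.58 ± 0.15). Rgs1 was also higher at days 7 and 30 (1.09 ± 0.33 and 1.84 ± 0.33; for day 30, adjusted p = 0.268 with the day 30 mean as 1 sample). Of 7 related receptors outside the symbols that were in the table, 4 passed at day 3 (57.1%, against 44.2% of all genes): the prostacyclin receptor Ptgir (2.09 ± 0.28) and the short-chain fatty acid receptor Ffar2 (1.26 ± 0.30) were higher and the ATP-gated channel P2rx7 (-1.18 ± 0.13) and Gpr34 (-4.68 ± 0.33), a lysophosphatidylserine receptor, lower at day 3.

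RefSeq promoter windows were available for 63 of the 79 members, 87 windows of 300 bases. TGANTCA was found on either strand in 6 of 30 windows (5 of 21 genes) of members higher at day 3 and 1 of 19 windows (1 of 13 genes) of members lower, against 2565 of all 32851 windows (7.81%). GAGGAA was found in 14 of 30 windows (10 of 21 genes) of those higher and 3 of 19 windows (3 of 13 genes) of those lower, against 28.3% of all windows. TGACGTCA, the cyclic AMP response element, was found in 1 of 30 windows, at S1pr2, and 0 of 19, against 1.79% of all. Windows of a gene with several starts can overlap, and no test was made of these counts, so they describe letters in the windows and not binding.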

How the data were processed

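RNA of sorted cardiac cells was sequenced in 12 libraries, 3 in each of 4 groups. Per the submitters' processing notes, cutadapt 1.3, RSEM 1.2.20, edgeR 3.14.0 and GRCm38 were used; whether counting used strand is not given in the sources used here. The authors deposited a signal per gene and library, a normalised read count, and a second block that is the log2 of that signal, with signals under 1 set to 0 (173520 of 173520 values within 1e-06). In every library 100% of signals were whole multiples of 1 step within 0.02 reads, which gave back the reads: 5828904 to 13199576 per library. Intervals and floors cover counting error only.

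Log2(signal + 1) was fitted with limma 3.58.1 (R 4.3.3) over all 4 groups for the 12879 genes whose signal averaged 1 or more, with a trended prior and 8 residual degrees of freedom; tests were two-sided, with Benjamini-Hochberg adjustment at 0.05 over all genes. The pseudocount understates changes of low genes. On the recovered reads, edgeR 4.0.16 called 5610, 2595 and 755 genes against day 0 at days 3, 7 and 30. It called 5965 for day 7 over day 3 and 5076 for day 30 over day 7. DESeq2 1.42.0 was a further alternative. The script was tested on simulated data.

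Same-numbered libraries of different groups did not deviate together (median r 0.00490 over 18 pairs), so no pairing was used. Named with values were members with a mean signal of at least 10, those passing the 4-group test with at least 3, and the 5 largest rises and falls per comparison. Others were added after their values were seen. The members and lists were chosen with earlier results of these data known. The libraries are labelled as independent biological replicates. Some members are not reported here by name or in the plots, but enter the counts.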

Additional observations from a re-analysis of the deposited data

How the results depend on the processing

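Members passing numbered 41, 29 and 5 against day 0 at days 3, 7 and 30, then 31 for day 7 over day 3, 29 for day 30 over day 7 and 48 over the 4 groups. A mean signal of at least 5, which tests fewer genes, gave 26 and 16 against day 0 at days 3 and 7, 18 for day 7 over day 3, 18 for day 30 over day 7 and 28 over the 4 groups. Of the 9328 genes tested in that setting, 4515, 2296, 4718, 4394 and 6541 passed in the same order. Among the 160 named results still tested there, 0 calls were lost. Fitting the compared groups alone gave 16 at day 7 and 13 at day 30 against day 0. Without the first day 0 and second day 7 libraries 13 passed at day 30 against day 0. With the day 30 libraries averaged as 1 sample, limma passed 0 at day 30 against day 0 (5 at an unadjusted p under 0.05; edgeR passed 4 and DESeq2 7 on all libraries) and 7 at day 30 against day 7, where fewer samples enter. For the other changes the cause was not tested. Leaving out 1 library at a time gave 39 to 43, 23 to 32, 4 to 11, 27 to 34 and 20 to 30 in the same order, and 44 to 50 over the 4 groups; the 11 came without the second day 7 library.

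With the replicate number as a block, 42, 31, 5, 32 and 27 members passed, and 47 over the 4 groups. Of all 12879 genes, 5725, 2850, 835, 6040 and 5144 passed in that setting, and 8230 over the 4 groups. The numbers did not pair the libraries.

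Over all genes, 796 passed at day 30 against day 0. That count was 1328 with DESeq2, 2674 with the compared groups alone, 2504 without the first day 0 and second day 7 libraries, 1995 without the second day 7 library, 267 and 402 without the second and the third day 0 library, 233 to 273 without a day 30 library, and 12 with these averaged. Averaging also gave 810 against 5103 at day 30 against day 7 and 1741 against 2782 at day 7 against day 0, where the compared groups alone gave 1158. Of 122 named calls 75 held under every alternative run, 47 were lost under at least 1, 22 of them without a single library, and 0 reversed.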
